A study of Mus musculus with 4 samples.

Results

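The genes described are 40 genes of the cell division cycle, in 3 classes: 22 mitosis genes, 15 DNA replication genes and 3 G1 cyclins. They were chosen by function, from a list of names, with earlier results of these data known. They were read from Affymetrix arrays of mouse caecal tissue through probe sets that carry 1 gene symbol. Where a gene had several, the one brightest on average stood for it. A probe set of this kind was present for 38 of the 40 genes, among 22180 genes in all. All 38 entered the analysis, which kept the 13083 genes that reached the array median on at least 1 array. The cyclin B1 gene Ccnb1 had no named probe set in the annotation used here, and the cyclin E2 gene Ccne2 was named only on a probe set that it shares with Ints8, so neither has a value.

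The study held 4 arrays, each of RNA pooled from 6 C57Bl/6 mice that were 21 weeks old, chosen on RNA quality, and 100 ng of pooled RNA was labelled per array. The chow of all 4 groups was depleted of n-3 PUFA, the omega-3 polyunsaturated fatty acids. The mice were wild type (WT) or apoE KO, without apolipoprotein E, a protein that carries lipids in the blood. In each genotype 1 group received prebiotics (Orafti P95, a daily 250 mg for each mouse in the final 15 days), carbohydrates that gut bacteria ferment, and 1 group did not. The control groups therefore share the depleted diet, and no group on another diet was analysed here. A pool gives 1 value per group and hides the spread between mice. The 2 WT arrays carry conflicting labels: 3 fields of each (title, source name and treatment) give one diet and 1 field (description) gives the opposite. They are named here by title, and results that split the WT pair by diet rest on that choice. The genotype comparison and the pair of KO arrays do not.

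Cells divide after copying their DNA once. At the end of G1, cyclin D and cyclin E kinases release E2F factors, which switch on genes for licensing origins, for nucleotide supply and for the replication fork. Genes for the spindle, the kinetochore and cytokinesis are switched on later, in G2 and mitosis, by a complex that works through the CHR element and the neighbouring CCAAT boxes bound by NF-Y. In the caecum and colon, dividing cells lie mainly in the lower crypt, from which daughter cells move up and mature, and in lymphoid follicles.

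These promoter letters were present in the members. Promoters came from RefSeq, build GRCm38.p6, as 250 bases before to 50 bases after each annotated start, and 18 mitosis and 13 replication genes had one. Bases before the start are printed below for 3 mitosis genes and 3 replication genes, picked as clear examples of the letters that set the classes apart, 5′ to 3′ on the strand of the gene. In the mitosis genes the capitals mark CHR letters and CCAAT, read on either strand. The Cdk1 promoter also holds E2F letters, at -174.5 and -126.5 bases from the start, outside the bases printed.

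Cdk1, chr10:69352913-69353022, minus strand: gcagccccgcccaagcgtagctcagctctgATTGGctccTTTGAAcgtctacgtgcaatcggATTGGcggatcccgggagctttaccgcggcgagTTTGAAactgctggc
Cdc20, chr4:118437344-118437453, minus strand: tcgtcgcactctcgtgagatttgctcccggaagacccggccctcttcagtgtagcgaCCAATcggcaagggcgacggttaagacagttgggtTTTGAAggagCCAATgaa
Kif11, chr19:37376272-37376381, plus strand: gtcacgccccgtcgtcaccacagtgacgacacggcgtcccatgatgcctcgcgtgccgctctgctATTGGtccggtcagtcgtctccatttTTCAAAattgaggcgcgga

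In the replication genes the capitals mark E2F letters and CCAAT on either strand, and where matches overlap they run together.

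Mcm5, chr8:75109319-75109508, plus strand: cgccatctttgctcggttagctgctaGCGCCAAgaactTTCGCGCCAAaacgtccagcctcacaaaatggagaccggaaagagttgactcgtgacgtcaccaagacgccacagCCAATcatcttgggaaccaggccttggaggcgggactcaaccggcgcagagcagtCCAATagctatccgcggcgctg
Mcm6, chr1:128359706-128359815, minus strand: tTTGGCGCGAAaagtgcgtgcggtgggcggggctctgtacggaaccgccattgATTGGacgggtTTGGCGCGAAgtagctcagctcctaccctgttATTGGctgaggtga
Rrm1, chr7:102441585-102441694, plus strand: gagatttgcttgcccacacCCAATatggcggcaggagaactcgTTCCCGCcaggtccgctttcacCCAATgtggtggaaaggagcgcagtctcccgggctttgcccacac

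CHR was searched as TTTGAA or as TTCGAA, E2F as TTNNCGC with each N a C or a G, and NF-Y as CCAAT, all on both strands; some E2F spellings can overlap each other across the strands. CHR letters stood in 14 of 18 mitosis promoters (77.8%) and in 3 of 13 replication promoters (23.1%), beside 21.7% of the promoters of all 27025 genes with a record. E2F letters stood in 3 mitosis promoters (16.7%; Mki67, Ccnb1 and Cdk1) and in 8 replication promoters (61.5%), beside 10.9% of all. Among the 10225 genes with a record that passed the filter, 17.8% held E2F letters and 16.5% held CHR letters. The mitosis share for E2F was thus near that of the tested genes. CCAAT was common to both classes, with 88.9% of mitosis and 76.9% of replication promoters beside 41.1% of all. All 14 mitosis promoters with CHR letters also held CCAAT (77.8%), a pair found in 8.61% of all promoters. The CHR matches of the mitosis genes had a median position of -16.0 bases from the start, against -122.0 bases over all genes, and 71.4% of them lay within 100 bases of it, against 42.3%. Such matches are letters in a window and not shown to be sites.

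**Figure D1:**
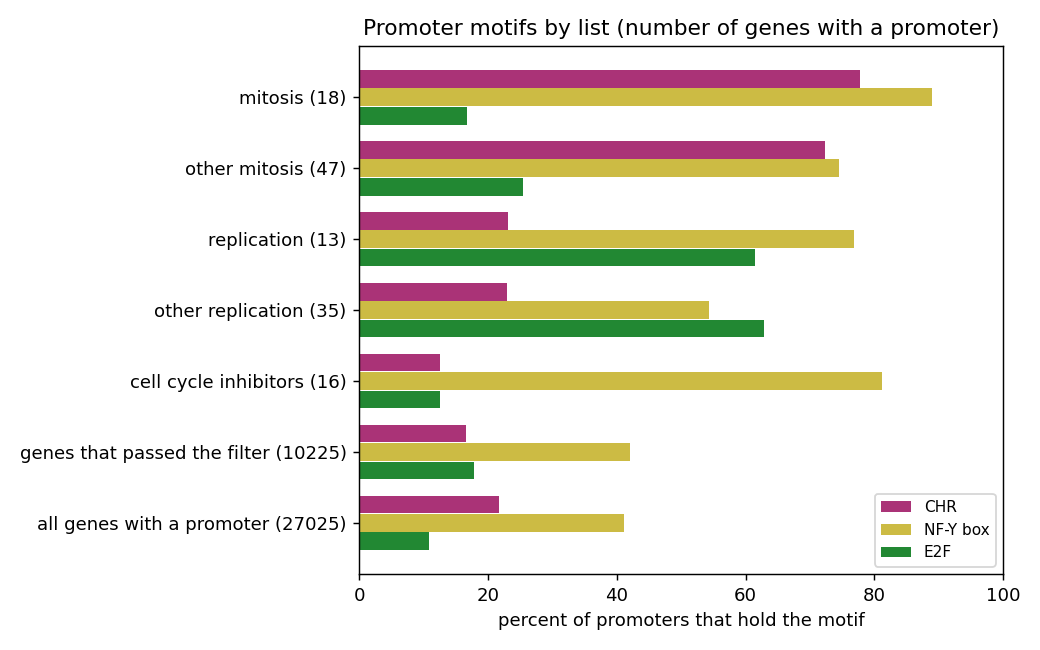
Percent of promoters (x axis) that hold each of 3 motifs, for lists of genes on the y axis with the number of promoters in parentheses. CHR letters are in 77.8% of mitosis and 23.1% of replication promoters, E2F letters in 16.7% and 61.5%, and the NF-Y box (CCAAT) is frequent in both classes.

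The probe sets behaved as gut tissue in all 4 arrays: the epithelial genes Epcam, Cdh1 and Krt8 lay between 10.10 and 10.95 log2 units. Array medians were 2.92 to 2.93, and any pair of arrays correlated across 41345 probe sets with a Pearson's r of 0.984 to 0.988. The targeted gene Apoe, which encodes apolipoprotein E, stood at 3.90 and 4.09 on the WT arrays and at 2.83 and 3.13 on the KO arrays, in the direction of its label. This difference of -1.02 ± 0.16 (SE) was not called for genotype (limma adjusted p = 0.78). The KO array with prebiotics stood apart: defensin genes of Paneth cells, a cell type of the small intestine, were high there and near the array median on the other 3 arrays. Other Paneth cell genes (Itln1, Mptx2 and Mmp7) stayed near the array median there. Whether this pool holds RNA of another gut segment was not tested. Of the members, Birc5, Cdt1, Cdc6, Cdc45 and Gins2 had values of 3.5 or below on some arrays, close to the array median, where these arrays resolve differences poorly. In bulk tissue, fewer dividing cells and less RNA per dividing cell cannot be told apart.

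Between genotypes, most mitosis genes had lower values on the apoE KO arrays. The KO mean lay below the WT mean for 20 of 21 mitosis genes, where 47.1% of all genes had that sign, and the median difference was -0.24 on the log2 scale, where the median of all genes was 0.01. For 12 of the 21 (57.1%) the KO arrays were both below the lower WT array, and for 0 both lay above. Over all genes tested, 14.0% had both KO arrays below and 16.2% had both above. No gene was called: limma with Benjamini-Hochberg adjustment over the 13083 genes called 0 members and 0 genes of any kind, so percent called was 0.0 in each direction. At an unadjusted p under 0.05, 4 of 21 mitosis genes and 0 of 15 replication genes were lower in KO, beside 1.37% of all genes. With 2 arrays a side, and the diet difference inside the error term, the spread is poorly known.

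The largest differences were in genes of the exit from mitosis and of the spindle. Cdc20, the activator of the anaphase-promoting complex, stood at 5.94 and 6.31 on the WT arrays without and with prebiotics and at 5.73 and 5.61 on the KO arrays. Plk1, the polo kinase that drives entry into mitosis and spindle assembly, stood at 6.88 and 7.22 in WT and at 6.49 and 6.74 in KO. Cenpe, the kinetochore motor that brings chromosomes to the spindle equator, stood at 6.22 and 6.28 in WT and at 5.83 and 5.89 in KO. In each of the 3 the genotypes did not overlap, and for Cenpe the arrays of a genotype lay within 0.06 of each other. The differences were -0.45 ± 0.17 (SE) for Cdc20, -0.44 ± 0.17 for Plk1 and -0.40 ± 0.13 for Cenpe, and each had a limma adjusted p of 0.999.

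Kif11, the motor that pushes the spindle poles apart, had 7.22 and 7.14 in WT and 6.94 and 6.74 in KO, a difference of -0.34 ± 0.14. Ube2c, the ubiquitin-conjugating enzyme that works with Cdc20, had 4.29 and 4.603 in WT and 4.08 and 4.16 in KO. Tpx2, which activates aurora A on spindle microtubules, had 5.21 and 5.27 in WT and 5.03 and 4.83 in KO. In each of these genes, too, the highest KO array lay below the lowest WT array. The aurora kinases themselves were of the same kind. Aurka, the spindle pole kinase, had 5.47 and 5.61 in WT and 5.38 and 5.18 in KO. Aurkb, the kinase of the chromosomal passenger complex, had 6.14 on both WT arrays and 5.70 and 6.05 in KO. Prc1, the bundler of midzone microtubules, had 6.02 and 6.11 in WT and 5.70 and 5.91 in KO. For Aurkb and Prc1 the KO array with prebiotics lay nearer to WT than the other KO array did, and for Aurka it lay farther away.

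Among cyclins and their kinase the separation was narrow. Ccnb2, a mitotic cyclin, had 6.86 and 7.08 in WT and 6.75 and 6.72 in KO. Cdk1, the kinase that mitotic cyclins activate, had 4.76 and 4.61 in WT and 4.60 and 4.59 in KO, so that 1 WT array lay within 0.02 of both KO arrays. Ccna2, the cyclin of S phase and G2, had 7.75 and 8.10 in WT and 7.63 and 7.83 in KO, and its genotypes overlapped. Kif20a, a motor of cytokinesis, completes the 12 genes without overlap, at 5.25 and 5.41 in WT and 5.15 on both KO arrays.

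The general markers of proliferation were less separated. Mki67, the coat protein of mitotic chromosomes used as the standard mark of dividing cells, had 8.96 and 8.68 in WT and 8.75 and 8.69 in KO, a difference of -0.10 ± 0.13. Top2a, the topoisomerase that untangles sister chromatids, had 7.17 and 6.86 in WT and 6.99 and 6.72 in KO. For both genes the WT array with prebiotics lay below the KO array without, so the genotypes overlapped. The smallest differences were in Bub1, Nusap1 and Birc5. Bub1, a checkpoint kinase, had 4.01 and 3.71 in WT and 3.87 and 3.86 in KO. Nusap1, a binder of spindle microtubules, had 5.32 and 5.15 in WT and 5.35 and 5.05 in KO. Birc5, the passenger protein survivin, had 3.43 and 3.505 in WT and 3.54 and 3.23 in KO. In Bub1 the difference was 0.0009, the only mitosis gene not below 0.

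**Figure D2:**
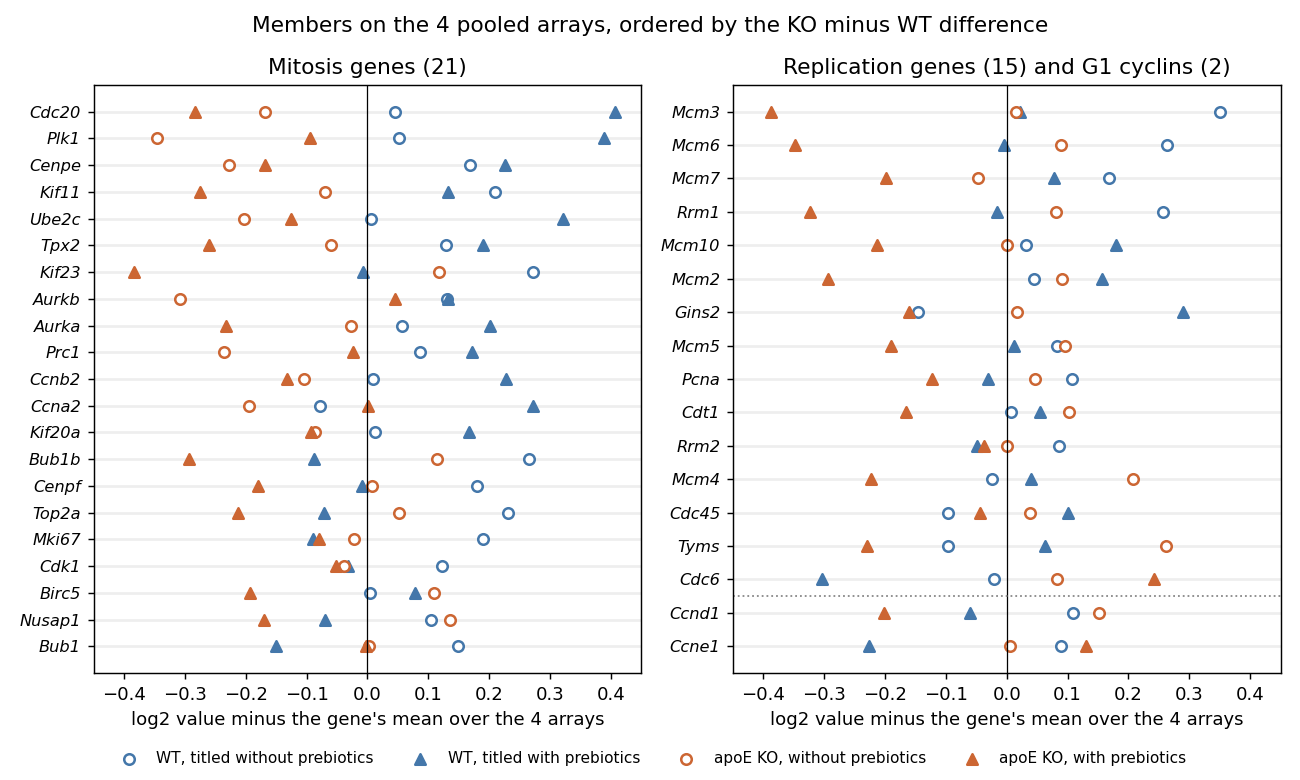
Log2 value of each of the 38 genes minus its own mean over the 4 arrays (x axis), ordered by the KO minus WT difference (y axis); blue is WT, orange is apoE KO, circles are arrays without and triangles arrays with prebiotics, by title. Both orange points lie left of both blue points for 12 mitosis and 3 replication genes, and the orange triangle is the leftmost point for 12 of 15 replication genes.

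For the 15 replication members the differences between genotypes were smaller on the median, and they lay mostly in the arrays with prebiotics. The KO mean was below the WT mean for 13 of 15, with a median of -0.09. In 3 of 15 (20.0%) both KO arrays were below both WT arrays, near the 14.0% of all genes, and in 1, Cdc6, both were above. The median KO minus WT difference was 0.01 between the arrays without prebiotics and -0.28 between those titled with prebiotics, while for mitosis genes these medians were -0.17 and -0.27. Without the KO array without prebiotics the replication median became -0.23, and without the KO array with prebiotics it became -0.01, so this value rests on single arrays. For mitosis genes, leaving out each array in turn gave medians from -0.27 to -0.17.

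The lowest of these differences were in Mcm3, Mcm6 and Mcm7, subunits of the MCM helicase, which unwinds DNA at the fork. Mcm3 had 4.99 and 4.66 in WT and 4.65 and 4.25 in KO. Mcm6 had 6.58 and 6.31 in WT and 6.41 and 5.97 in KO. Mcm7 had 5.59 and 5.50 in WT and 5.37 and 5.22 in KO. In Mcm7 the genotypes were apart, in Mcm3 they were apart by less than 0.01, and in Mcm6 they overlapped. The differences were -0.37 ± 0.19, -0.26 ± 0.19 and -0.25 ± 0.14 (SE), with a limma adjusted p of 0.999 for each. The helicase subunits Mcm2, Mcm5 and Mcm4 differed by -0.20, -0.09 and -0.02, and Rrm1 by -0.24, all with overlap. Mcm10, which helps to activate the helicase, was the third gene without overlap, at 3.89 and 4.04 in WT and 3.86 and 3.64 in KO. At the other end, Cdc6, which loads the helicase onto origins, had 3.22 and 2.94 in WT and 3.33 and 3.49 in KO, all near the array median. Cdc45, a partner of the helicase at the fork, had 3.16 and 3.36 in WT and 3.29 and 3.21 in KO, with overlap.

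Further genes of the same processes, taken from lists of names, gave the same order of classes. These lists were drawn up with earlier results of these data known and were read on the same arrays, so they are no independent check. Of 52 other mitosis genes, 32 (61.5%) had both KO arrays below both WT arrays and 3 had both above, with a median of -0.21. Of 41 other replication genes, 14 (34.1%) had both below and 2 had both above, with a median of -0.10. Their median KO minus WT difference was -0.12 between the arrays without prebiotics and -0.08 between those titled with them. The tilt of the replication members to the arrays with prebiotics was thus absent here. Among the other replication genes, Lig1, the ligase that joins Okazaki fragments, had 5.12 and 4.70 in WT and 4.58 and 4.03 in KO, a difference of -0.60 ± 0.23. Of 28 regulators of G1 and S phase, 4 (14.3%) had both below and 5 (17.9%) had both above, with a median of -0.02. These shares were near the 14.0% and 16.2% of all genes. None of these genes was called for genotype. E2f6, a repressing member of the E2F family, had the opposite direction, at 3.66 and 3.48 in WT and 4.15 and 4.23 in KO. Cdk6, a partner of D cyclins, had 6.67 and 6.50 in WT and 7.03 and 6.92 in KO. Both were chosen for mention after their values were seen, for an unadjusted p under 0.05 on the higher side.

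**Figure D3:**
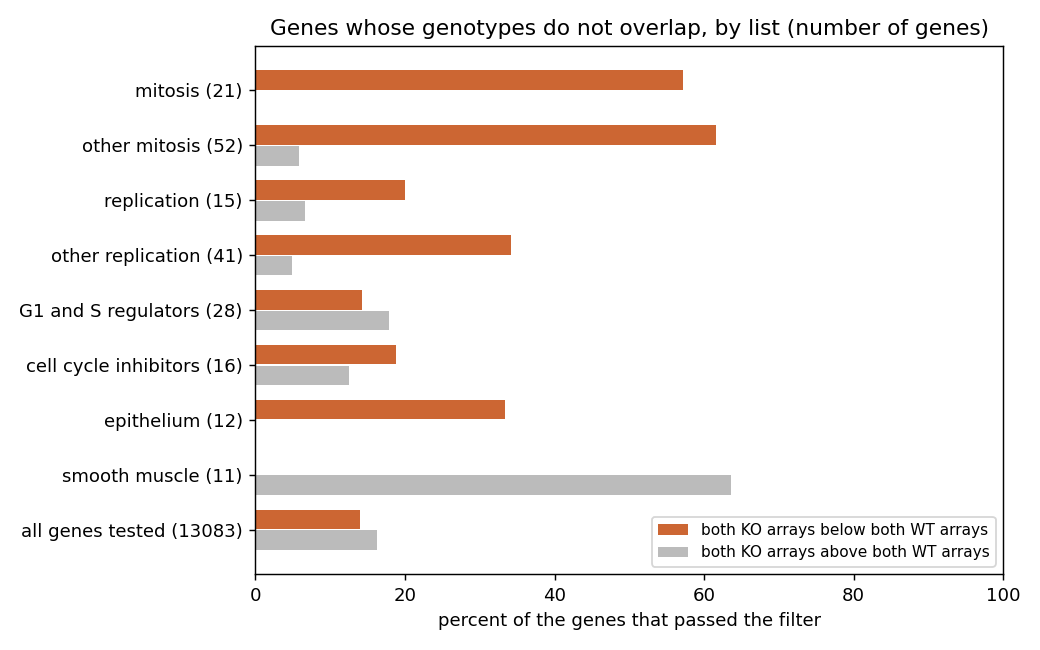
Percent of the genes of each list (x axis) with both KO arrays below both WT arrays (orange) or above them (grey); the y axis gives lists with the number of genes that passed the filter. Mitosis genes reach 57.1% and other mitosis genes 61.5% on the lower side, where all genes tested reach 14.0%.

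The promoter letters alone gave shares near the background. Among the 687 tested genes with both CHR letters and CCAAT, 18.0% had both KO arrays below both WT arrays, against 14.1% of all tested genes with a promoter record, and the median difference was -0.02. With the listed genes left out, 16.0% of 632 genes did. Of the mitosis genes with a promoter record, those without CHR letters were Ccnb1, Birc5, Cenpe and Nusap1, of which Cenpe was among the most separated genes and Birc5 and Nusap1 among the least.

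Markers of other cell types also differed between genotypes. The summed level of 11 smooth muscle genes (Acta2, Myh11, Des and others), as a log2 value, was 12.21 and 11.94 on the WT arrays without and with prebiotics and 12.47 and 12.30 on the KO arrays. Of these 11 genes 7 (63.6%) had both KO arrays above both WT arrays, beside 16.2% of all genes, and the median difference was 0.30. Of 9 fibroblast and matrix genes (Col1a1, Col3a1 and others) 5 (55.6%) had both above, with summed levels of 9.72 and 10.03 in WT and 10.33 and 10.35 in KO. The 12 epithelial genes had summed levels of 12.96 on both WT arrays and 12.86 and 12.95 on the KO arrays. Their median was -0.04, and 4 (33.3%) had both KO arrays below, beside 14.0% of all genes. The 12 crypt base genes (Lgr5, Ascl2 and others) had 2 such genes (16.7%), near the share of all genes, and a median of -0.01. All 11 B cell and germinal centre genes had a KO mean below the WT mean, with a median of -0.22, although 8 to 11 of them lay below 3.5 on each array. The part of these cell types in the mitosis genes was not tested.

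With prebiotics, most replication genes had lower values in apoE KO mice. This comparison sets 1 array against 1 array and has no replicate check, so sizes and counts are given without a test. The array with prebiotics lay below the array without for 14 of 15 replication genes, where 44.1% of all genes had that sign, and the median difference was -0.27 beside 0.03 over all genes. Of the 15, 8 (53.3%) were lower by 1.2-fold or more and 0 were higher by as much. Over all genes tested, 10.1% were lower and 16.1% higher by that fold. Of 21 mitosis genes, 15 were below 0, with a median of -0.06, 5 (23.8%) were lower by 1.2-fold or more, and 1 was higher. These counts are relative to the RMA scaling: with arrays centred on the level of the epithelial genes, the median of all genes in this pair became -0.29, 88.6% of them were below 0, and 14 replication and 15 mitosis genes were lower by 1.2-fold or more.

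All 6 subunits of the MCM helicase were lowest on the KO array with prebiotics. Mcm2 stood at 4.49 and 4.601 on the WT arrays without and with prebiotics, at 4.53 on the KO array without and at 4.15 on the KO array with them. Mcm4 had 4.93, 4.99, 5.16 and 4.73 in the same order. Mcm5 had 5.74, 5.67, 5.76 and 5.47. In Mcm2 and Mcm5 the first 3 arrays lay close together and the fourth lay below them, and in Mcm4 the first 3 were spread about as widely as the gap to the fourth. In Mcm3 and Mcm6, given above, the WT array with prebiotics was also lower than its partner. The KO differences of the 6 subunits ran from -0.15 (Mcm7) to -0.44 (Mcm6), with a median of -0.39. In the WT pair by title they ran from -0.33 (Mcm3) to 0.11 (Mcm2), with a median of -0.08, and 4 of 6 were below 0. The KO array with prebiotics was the lowest of the 4 arrays for 12 of 15 replication genes and 13 of 21 mitosis genes, where it was the lowest for 20.6% of all genes. This count was added after the values were seen.

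Genes of nucleotide supply showed the same array as lowest, with an exception. Tyms, which makes thymidylate, had 4.84 and 4.999 in WT and 5.20 and 4.71 in KO, the largest replication difference in the KO pair at -0.49. Rrm1, the large subunit of ribonucleotide reductase, had 6.91 and 6.64 in WT and 6.73 and 6.33 in KO, a KO difference of -0.40. Rrm2, the small subunit, which sets the activity of the enzyme in S phase, had 4.71 and 4.57 in WT and 4.62 and 4.58 in KO, a difference of -0.04. The subunits of the same enzyme thus gave unequal values, though Rrm2 has a second probe set, lower in signal, at 2.82, 2.56, 2.63 and 2.59 on the 4 arrays. Pcna, the sliding clamp of the polymerases, had 8.67 and 8.54 in WT and 8.61 and 8.44 in KO, a KO difference of -0.17. Cdt1, a licensing factor, had 3.56 and 3.61 in WT and 3.66 and 3.39 in KO. Gins2, a subunit of the complex that joins Cdc45 to the helicase, had 3.34 and 3.78 in WT and 3.51 and 3.33 in KO. Cdc6 was the only replication gene higher with prebiotics in KO, by 0.16, at a level close to the array median.

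Mitosis genes went both ways in the KO pair. Kif23, a motor of the central spindle, had 6.66 and 6.39 in WT and 6.51 and 6.01 in KO, and its KO difference of -0.50 was the lowest among members. Bub1b, the checkpoint protein BubR1, had 4.64 and 4.28 in WT and 4.48 and 4.08 in KO, and Cenpf, a kinetochore protein, had 4.94 and 4.75 in WT and 4.77 and 4.58 in KO. These 3 genes were lower on the array with prebiotics in both genotypes by title. Nusap1, given above, differed by -0.30 in KO, and Birc5 by as much. Aurkb was higher by 0.35 in KO, the only member past 1.2-fold on that side, and Plk1 by 0.25 and Prc1 by 0.21 came next. Both directions were thus present among the mitosis genes of this pair, by 1.2-fold or more in 5 genes and 1 gene.

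The cyclins of G1 had 2 measured genes. Ccnd1, cyclin D1, which couples growth signals to the cycle, had 6.40 and 6.23 in WT and 6.44 and 6.09 in KO, a KO difference of -0.35. Ccne1, cyclin E1, which triggers entry into S phase, had 3.91 and 3.60 in WT and 3.83 and 3.95 in KO. Between genotypes they differed by -0.05 ± 0.17 and 0.14 ± 0.16 (SE), each smaller than its error.

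**Figure D4:**
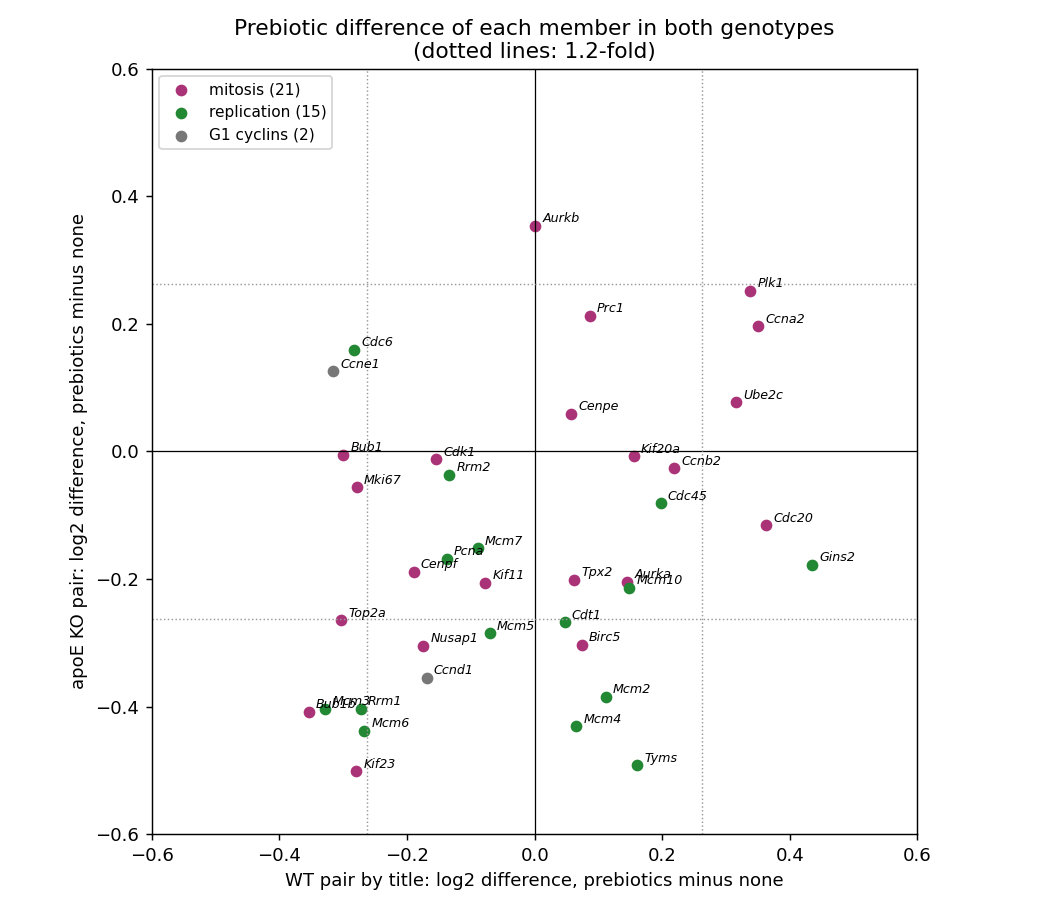
Log2 difference between the arrays with and without prebiotics in the apoE KO pair (y axis) against the WT pair by title (x axis), 1 point per gene, with dotted lines at 1.2-fold. Replication genes lie mostly below the horizontal axis and on both sides of the vertical one, and mitosis genes lie in every quadrant except the upper left.

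In the WT pair, by title, neither class of members had a common direction. Of 15 replication genes 8 were below 0, with 4 lower and 1 higher by 1.2-fold or more, and the median was -0.07. Of 21 mitosis genes 9 were below 0, with 5 lower and 4 higher, and the median was 0.06. Over all genes, 46.7% were below 0, 10.6% were lower and 14.9% higher by that fold, and the median was 0.02. Of the 41 other replication genes, 27 were below 0 in this pair, with a median of -0.08. Of these 41, 9 (22.0%) were lower and 0 higher by 1.2-fold or more. Over the 56 replication genes of both lists, 25.0% were lower by that fold in KO and 23.2% in WT. If the descriptions hold and not the titles, each of these WT signs is turned. Plk1, Ccna2, Ube2c and Cdc20 were the 4 mitosis genes higher by 1.2-fold or more on the array titled with prebiotics, by 0.32 to 0.36, and Gins2 was the replication gene, by 0.43.

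Over both genotypes, with arrays by title, limma called 0 of 38 members at an adjusted p under 0.05, where 0.994% of all genes were called higher and 0.26% lower. The lowest adjusted p among members was 0.19, for Kif23. At an unadjusted p under 0.05, 6 members were lower (Top2a, Bub1b, Kif23, Mcm3, Mcm6 and Rrm1) and 2 were higher (Plk1 and Ccna2), beside 4.62% and 9.13% of all genes. The estimates were -0.39 ± 0.12 (SE) for Kif23, -0.35 ± 0.12 for Mcm6, -0.34 ± 0.12 for Rrm1 and 0.29 ± 0.11 for Plk1. This fit has 1 residual degree of freedom.

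The other replication and other mitosis genes had median KO differences nearer to that of all genes than the members of their class had. Of 41 other replication genes, 30 (73.2%) were below 0, where 44.1% of all genes had that sign, with a median of -0.09. Of the 41, 6 (14.6%) were lower by 1.2-fold or more, beside 10.1% of all genes. Pole2, a subunit of polymerase epsilon, had 3.33 and 3.58 in WT and 4.02 and 3.41 in KO, the lowest difference at -0.61. Lig1 followed at -0.55 and Orc6, of the origin recognition complex, at -0.40, whereas the GINS genes Gins3 and Gins4 were higher by 0.42 and 0.33 and the kinase gene Cdc7 by 0.21. Of 52 other mitosis genes 23 (44.2%) were below 0, near the 44.1% of all genes, with a median of 0.02. By 1.2-fold or more, 4 (7.69%) were lower, beside 10.1% of all genes. Ndc80, of the outer kinetochore, differed by -0.54, the motor Kif4 by -0.39 and the spindle protein Tacc3 by -0.34. The condensin gene Ncaph and the motor Kifc1 were each higher by 0.30, and Cks2, a partner of Cdk1, by 0.23.

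Among 28 regulators of G1 and S phase, 4 (14.3%) were lower and 1 (3.57%) higher by 1.2-fold or more in KO, beside 10.1% and 16.1% of all genes. Tfdp1, the partner of E2F factors in DNA binding, had 7.77 and 7.39 in WT and 7.71 and 7.23 in KO, a KO difference of -0.47. E2f8, a repressing E2F, and Skp2, which marks inhibitors for breakdown, were each at -0.37, while the phosphatase gene Cdc25a (0.41), Lin9 (0.26) and Foxm1 (0.21) were higher. The list of inhibitors of the cycle was the one that stood higher. It also holds Mdm2, which is not itself such an inhibitor. Of its 16 genes 2 were below 0, with a median of 0.21. By 1.2-fold or more, 7 (43.8%) were higher, beside 16.1% of all genes, and 0 lower. The 7 include Mdm2, at 0.265, and Cdkn1c, which lay near the array median at 2.92 and 3.19 on the KO arrays. The lowest of the list were Ccng1 at -0.18 and Cdkn1b at -0.05. Gadd45b, a stress-response gene, was higher by 0.62 in KO and lower in WT, at -0.24. Btg2, an antiproliferative gene, was higher by 0.47 and 0.30. Ccng2, an unconventional cyclin linked to arrest, had 6.26 and 6.95 in WT and 6.21 and 6.74 in KO, and rose with prebiotics over both genotypes by 0.61 ± 0.12 (limma adjusted p = 0.047, higher in both pairs by title). It was the only gene of the pathway lists called, and with the WT arrays exchanged its estimate was -0.08. The call was also lost with no filter, a filter on means, cyclic loess, centring on epithelial levels or no trend, with limma adjusted p from 0.052 to 0.14.

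Markers of other cells differed with prebiotics as well. Of 13 genes of mature colonocytes (Car1, Slc26a3, Aqp8 and others), 11 (84.6%) were higher by 1.2-fold or more in KO and 10 (76.9%) in WT by title. Their medians were 0.54 and 0.35. Their summed levels, as log2 values, were 14.17 and 14.48 in WT and 14.19 and 14.56 in KO. Over all genes, 16.1% were higher by that fold in KO and 14.9% in WT. Limma called 9 of these 13 genes higher over both genotypes, beside 0.994% of all genes. Smooth muscle genes went the other way, below 0 for 9 of 11 in KO and 11 of 11 in WT by title. Over all genes, 44.1% and 46.7% were below 0. Of the smooth muscle genes limma called 3 lower over both genotypes (lowest adjusted p = 0.028), beside 0.26% of all genes. Of 9 fibroblast and matrix genes 6 were above 0 in KO and 7 in WT, and 1, the collagen gene Col1a1, was called higher (limma adjusted p = 0.0018). The crypt base genes had medians of -0.002 in KO and 0.09 in WT, with summed levels of 10.27 to 10.29 on all 4 arrays. The B cell and germinal centre genes were lower on the KO array with prebiotics, with a median of -0.34. Of these genes 6 of 11 (54.5%) were past 1.2-fold, beside 10.1% of all genes. Their summed levels were 6.95 and 6.96 in WT, 6.83 on the KO array without and 6.36 on the KO array with prebiotics. Cd79a, a subunit of the B cell receptor, had 4.81, 4.97, 4.52 and 3.16 in that order. On the KO array with prebiotics, genes of Paneth cells, which belong to the small intestine, stood out. Of 7 such genes 5 (71.4%) were higher by 1.2-fold or more in KO, beside 16.1% of all genes. Their summed levels were 6.16, 5.80, 5.90 and 9.43 in the same order of arrays. Defa21, Defa22, Defa24 and Lyz1 reached 8.18, 7.87, 6.21 and 6.02, whereas Itln1, Mptx2 and Mmp7 stayed at 3.27, 3.27 and 3.15. Itln1 is among the 5 counted, with a KO difference of 0.46 at values near the array median. The array on which most replication genes were lowest is thus the one with the lowest B cell and highest Paneth cell levels. A difference in the gut segment sampled and an effect of prebiotics cannot be told apart in this pair. The part of these cell types in the replication genes was not tested.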

How the data were processed

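Values were read from the authors' deposited series table, which holds 1 log2 value per probe set and array; they were made with RMA in Affymetrix Expression Console, per the submitters' processing notes, which name no version. RMA subtracts background and brings arrays to a common distribution, which compresses differences of low values. The log base was taken from RMA, since it is not given in the sources used here, and neither is a genome build, so only the printed promoters carry coordinates. Of 41345 probe sets the annotation gave 1 symbol for 23521, several for 1814 and none for 16010. All 38 measured members kept their symbol in a RefSeq gene table. A gene was kept if it reached the array's median of probe sets with 1 symbol (2.99 to 3.01) on at least 1 array.

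Genotype (2 residual degrees of freedom) and prebiotics with genotype as a term (1 residual degree of freedom) were fitted with limma (version 3.58.1, R 4.3.3; lmFit, then eBayes with its trend option), two-sided, with Benjamini-Hochberg adjustment over 13083 genes and a threshold of 0.05. The p-values measure only the spread between these 4 pools. Single pairs of arrays were counted at 1.2-fold. On simulated data with 200 changed genes, 84% of 2-fold genotype changes and 98% of 2-fold prebiotic changes were recovered, with 15 and 12 false calls. The simulated noise was independent between genes, with no diet effect or shift shared across an array. The shares therefore do not give the recovery on the real arrays, where the Apoe difference of -1.02 was not called.

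Members and lists were chosen with earlier results of these data known. Values on all 4 arrays were to be given for Mki67, Top2a, Cdk1, Ccnb1, Plk1, Pcna, Mcm2, Mcm5, Rrm2 and the G1 cyclins, for members called, and for the 3 largest differences each way per class in KO and in genotype; further members were added. Of the other pathway lists, members called and the 3 largest KO differences each way were to be named, and Lig1, E2f6 and Cdk6 were added for genotype after their values were seen. Alternatives were other filters, the mean over probe sets, cyclic loess, centring on epithelial genes, no trend, diet as a block, the WT pair exchanged, and each array left out.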

Additional observations from a re-analysis of the deposited data

Results flagged for a closer look

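In 5 members the arrays with and without prebiotics differed by at least 1.1-fold in opposite directions in the apoE KO pair and in the WT pair by title, as did 9.83% of all genes tested. With 1 array a group, the difference between genotypes was not tested, and it depends on the WT titles. Tyms, the thymidylate synthase gene, differed by -0.49 in KO and 0.16 in WT. Gins2 differed by -0.18 in KO and 0.43 in WT. Mcm10 differed by -0.21 and 0.15. Aurka, the only mitosis gene of the 5, differed by -0.20 and 0.14. Cdc6 went the other way, with 0.16 in KO and -0.28 in WT.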

How the results depend on the processing

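The count of 0 members called for genotype held under every alternative run, including diet as a block and each array left out, and the mitosis median stayed below 0. The count of 12 mitosis genes with both KO arrays below both WT arrays was 11 or 12 under the filters and scalings run. Of 38 genotype differences, 1 changed sign under cyclic loess, 2 under centring on epithelial levels and 4 under centring on epithelial deviations. Centring each array on the median level of the epithelial genes moved the prebiotic values most, because it shifts every gene of a pair alike, with a median over all genes of -0.29 in KO. Under it 7 members passed limma's threshold for prebiotics. The share of all genes that passed was not counted, so these 7 are not a result about the members. The mitosis medians became -0.29 over both, -0.38 in KO and -0.068 in WT, and the replication medians -0.36, -0.59 and -0.20. This centring also gave 15 mitosis and 14 replication genes lower by 1.2-fold in KO, where 88.6% of all genes were below 0. It gave 0 replication genes with both KO arrays below both WT arrays. Centring on the median deviation of the same genes, chosen after seeing the data, gave 8 mitosis and 9 replication genes lower by 1.2-fold or more in KO. With this second centring, 1 replication gene had both KO arrays below both WT arrays. A filter at the 75th percentile gave a KO replication median of -0.39. Leaving out each array gave genotype medians from -0.23 to -0.0098 for replication and from -0.27 to -0.17 for mitosis. The Ccng2 call was lost with no filter (limma adjusted p = 0.11), the filter on means (0.067), cyclic loess (0.052), the first centring (0.12) and no trend (0.14), and with the WT pair exchanged it turned to -0.080. The number of arrays limits the precision.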
